A study of Homo sapiens with 24 samples.

Results

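The regions described here are the ChIP-seq peaks at 7 genes, the Notch ligand JAG1, the receptors NOTCH1, NOTCH2 and NOTCH3, the target repressors HES1 and HEY1, and TLE3, a corepressor of the Groucho family. ChIP-seq maps where a protein or histone mark sits by sequencing the DNA that an antibody pulls down. A peak or region belonged to the set when it overlapped a window of 1 gene body with about 50 kb on each side, on the hg19 build. This gave 916 of the 1483402 peaks and regions in 18 lists, made up of 24 for UTX, 4 for MLL4, 356 for H3K27ac, 369 for H3K4me1 and 163 for H3K27me3. The genes were chosen from the presence of peaks at them in these same lists, so all values are given as descriptions and none is tested.

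The cells were UMUC1, an established human bladder cancer line, as 3 stable lines that all carried a pSIN construct with puromycin resistance. The WT line held wild-type UTX, the HEAA line held UTX with the substitutions H1146A and E1148A, and the EV line held the empty vector. All were harvested 3 days after plating, and nothing in the labels says whether a line was 1 clone. UTX, MLL4, H3K4me1 and H3K27me3 had 1 list per line, and H3K27ac had 2 numbered libraries per line. Values from a single list have no replicate error, and the read depth behind every list is unknown.

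UTX, also called KDM6A, is a histone demethylase that removes methyl groups from lysine 27 of histone H3, and it sits in the enhancer complexes of the methyltransferases MLL3 and MLL4. H3K27ac marks active enhancers and promoters, H3K4me1 marks enhancers, and H3K27me3 marks chromatin held silent by Polycomb complexes. In Notch signalling a ligand such as JAG1 on one cell binds a NOTCH receptor on its neighbour, and the receptor is cut so that its inner part moves to the nucleus. There it joins the DNA-binding protein RBPJ and switches on HES and HEY genes. HES and HEY proteins are repressors. HES proteins recruit TLE corepressors to DNA, and HES1 represses its own gene. In the bladder lining, Notch signalling is known for promoting differentiation, and its genes are inactivated in part of bladder cancers.

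The promoters of HES1 and TLE3 are shown because UTX peaks lay close to the starts of both genes. The sequences come from RefSeq on GRCh38.p14, a different build from the peak lists, so their positions cannot be set against peak positions. Each runs from 250 bases before the gene start to 50 bases from it on. Capitals mark GTGGGAA, the core recognised by RBPJ, in HES1 and CACGTG, an E-box that HEY proteins can bind, in TLE3. HES1 lies on the plus strand at chr3:194135898-194136197, and the outermost of 3 TLE3 promoters lies on the minus strand at chr15:70097868-70098167.
HES1: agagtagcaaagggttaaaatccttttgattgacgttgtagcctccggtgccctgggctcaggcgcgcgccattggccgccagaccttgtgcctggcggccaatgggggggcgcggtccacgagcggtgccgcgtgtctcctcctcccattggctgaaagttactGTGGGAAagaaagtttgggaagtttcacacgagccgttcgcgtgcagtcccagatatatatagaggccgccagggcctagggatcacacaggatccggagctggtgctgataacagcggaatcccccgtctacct
TLE3: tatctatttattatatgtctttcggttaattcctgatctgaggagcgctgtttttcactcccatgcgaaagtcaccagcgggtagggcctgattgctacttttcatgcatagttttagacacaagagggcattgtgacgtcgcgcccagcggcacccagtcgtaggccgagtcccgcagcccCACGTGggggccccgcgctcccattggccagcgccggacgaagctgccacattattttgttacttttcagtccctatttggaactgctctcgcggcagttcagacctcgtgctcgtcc
The RBPJ core of HES1 began 85 bases before the start. Of 35116 RefSeq promoters, 6.25% held GTGGGAA on either strand. The E-box of the TLE3 promoter shown began 68 bases before its start, and 7.26% of all promoters held CACGTG. The TLE3 promoters listed from chr15:70094740 and chr15:70096703 held no CACGTG. HES proteins also bind the N-box CACNAG, of which HES1 had 4 matches and the TLE3 promoter shown 3. The TLE3 promoters not shown had 1 and 0 matches, and 38.0% of all promoters held at least 1. The promoters of 6 of the 7 genes were in the table, and GTGGGAA matched in HES1 among them.

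Gene starts were taken from the windows, whose edges lie about 50 kb beyond each gene, and are therefore uncertain by about 1 kb. Distances are counted along the gene, negative before its start. A place without a peak is one below the threshold of the peak caller and not one without signal. Over the whole series the UTX lists held 2566 peaks in WT, 2855 in HEAA and 31 in EV, and the MLL4 lists 898 in WT, 1125 in HEAA and 133 in EV. The fold enrichment of a peak is the authors' own value and is used to place a peak within its list.

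UTX peaks were called at HES1, HEY1, NOTCH3 and TLE3. None was called in the windows of JAG1 (chr20:10568000-10705000), NOTCH1 (chr9:139339000-139490000) and NOTCH2 (chr1:120404000-120662000). Merging overlapping peaks gave 12 UTX sites, 4 at HES1, 4 at TLE3, 3 at NOTCH3 and 1 at HEY1. WT and HEAA both had a peak at 10 of the 12, and the other 2 had one in WT. HES1 was the gene with an EV peak, at 1 site. Sites with a peak in WT or HEAA and none in EV numbered 11 of 12, against 99.2% of all 3689 merged UTX sites of the series. Sites called in WT and HEAA and not EV were 9 of 12 (45.8% of all sites), sites called in WT only were 2 (22.7%), and 1 was called in all lists (0.732%). At the 10 sites with a peak in WT and HEAA, the summits of both lay 1 to 70 bp apart, with a median of 18 bp. Over all 1717 merged UTX sites with a peak in WT and HEAA the median was 28 bp, and 83.5% of them had a gap of at most 70 bp. Small gaps are in part built in, since such a site is a merge of overlapping peaks.

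**Figure D1:**
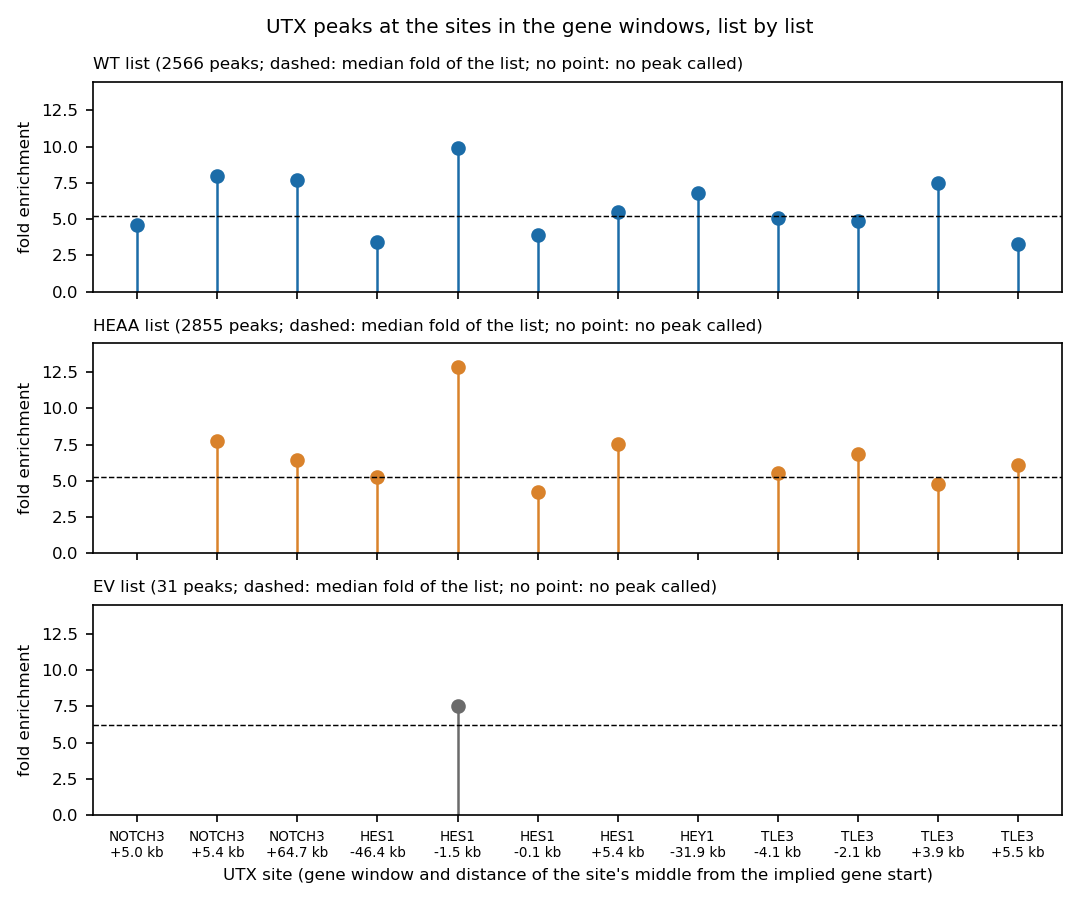
Fold enrichment of the UTX peak (vertical axis) at each of 12 sites (horizontal axis, by gene and distance of the site's middle from the implied gene start) in the WT, HEAA and EV lists, from top to bottom, with the median of each list as a dashed line. The HES1 site about 1.5 kb before the gene is the highest point in the WT panel (9.93) and in the HEAA panel (12.8) and the point in the EV panel (7.52).

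The HES1 window, chr3:193804000-193906000, held the strongest and widest UTX site of the set, at chr3:193852038-193853044 just before the gene. In WT its peak had a fold of 9.93 and ranked 55 of 2566 by fold. It was 942 bp wide, the widest UTX peak of the WT list. In HEAA its fold was 12.8, rank 12 of 2855, and its width of 951 bp was rank 2. EV had 2 peaks within the same site, at chr3:193852300-193852396 with a fold of 7.52 and at chr3:193852663-193852940 with a fold of 4.45. The first of them ranked 5 of the 31 EV peaks by fold. This was therefore a site with signal in the line without a UTX construct too, and the part of an antibody background in the WT and HEAA peaks was not tested.

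A second HES1 site, chr3:193853705-193854003, ended at the implied gene start. Its fold was 3.90 in WT and 4.23 in HEAA, below the list medians of 5.19 in WT and 5.27 in HEAA. Just past the gene, chr3:193859025-193859859 had folds of 5.49 in WT and 7.51 in HEAA and ranked 5 by width in each of those lists. Far upstream, about 46 kb before the gene, chr3:193807385-193807754 had folds of 3.44 in WT and 5.29 in HEAA. HES1 thus carried UTX before and after a gene of about 2 kb. The body between the implied start and end held 0.004 kb of UTX peak in WT and 0 kb in HEAA and in EV. With gene starts uncertain by about 1 kb, the site at the start may lie partly in the gene, so the body cannot be called free of UTX. The far upstream site lay 3.38 kb inside the window edge in WT. The next UTX peaks beyond the edge lay 14.8 and 15.3 kb outside in WT (folds of 4.29 and 3.16), 14.8 kb in HEAA (6.37) and 15.3 kb in EV (5.26), and are not counted.

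At TLE3, in the window chr15:70290000-70440000, the 4 UTX sites sat on both sides of the gene start. In the gene, chr15:70384334-70384621 lay 5.5 kb and chr15:70385938-70386266 lay 3.9 kb past the start. The first had folds of 3.31 in WT and 6.11 in HEAA, and the second had 7.52 in WT and 4.77 in HEAA. So the stronger of the pair by fold was the second in WT and the first in HEAA. Before the start, chr15:70391937-70392301 had folds of 4.90 in WT and 6.84 in HEAA. The outer one, chr15:70393900-70394227, had folds of 5.05 in WT and 5.53 in HEAA. None of the 4 had a peak in EV.

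NOTCH3, in the window chr19:15220000-15362000, had 2 neighbouring UTX sites inside the gene and 1 beyond its far end. The inner site chr19:15306412-15306746, about 5.4 kb past the start, had folds of 8.01 in WT (rank 207 of 2566) and 7.74 in HEAA (rank 281 of 2855). Its neighbour chr19:15306896-15307063 was called in WT only, with a fold of 4.58. The distant site chr19:15247142-15247416 had folds of 7.71 in WT and 6.41 in HEAA. It lay about 65 kb past the start of NOTCH3, beyond its end, so it cannot be assigned to NOTCH3.

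At HEY1, in the window chr8:80626000-80730000, the 1 UTX site lay at chr8:80711812-80712020, about 32 kb before the gene, and was called in WT only with a fold of 6.81. Just outside the window, 10.6 kb past its edge, a UTX peak was called in WT (fold of 4.60) and in HEAA (4.01). Near NOTCH1 the nearest UTX peaks lay 28.4 kb outside the window, with a fold of 4.29 in WT and 5.44 in HEAA.

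MLL4, the methyltransferase of the complex that UTX joins, had 4 sites in the windows, 2 called in WT only and 2 in HEAA only. In the whole series 26.8% of the 1573 merged MLL4 sites were called in WT only, 40.9% in HEAA only, and 91.6% in WT or HEAA and not in EV. All 4 overlapped a UTX peak, as did 69.9% of all merged MLL4 sites. At HEY1 the MLL4 peak of WT, chr8:80711832-80712011, had a fold of 7.02 and matched the UTX peak of WT. At NOTCH3 the WT peak chr19:15306445-15306719 had a fold of 7.63, and the HEAA peak chr19:15247159-15247323 a fold of 6.40. At HES1 the MLL4 peak was at the far upstream site in HEAA, chr3:193807473-193807637, with a fold of 4.75. The strong HES1 site and the 4 TLE3 sites had no MLL4 peak in any line. Thus 4 of 12 UTX sites carried MLL4 in WT or HEAA, against 29.4% of all merged UTX sites. The MLL4 lists held no peak on chromosomes 20, 21 and 22 in any line, while 157 merged UTX sites lay on chromosome 20, so nothing can be read from the lack of MLL4 at JAG1, which is on chromosome 20.

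**Figure D2:**
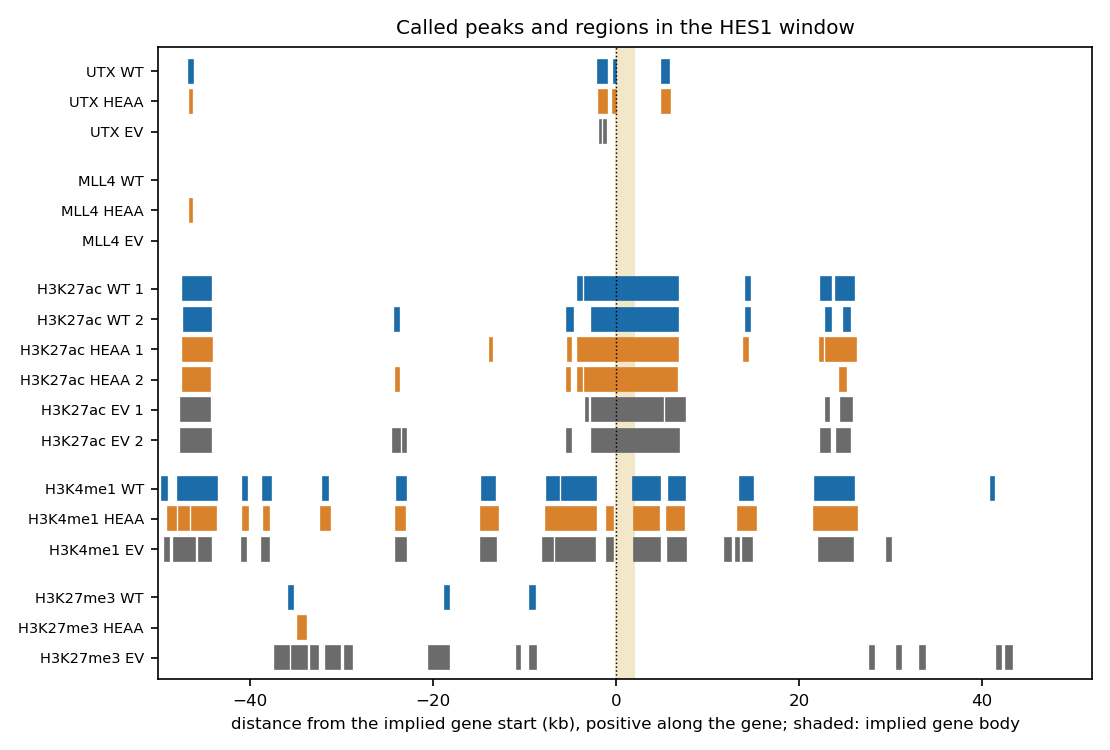
Called peaks and regions in the HES1 window (horizontal axis, kb from the implied gene start, gene body shaded), 1 row per list with WT, HEAA and EV from top to bottom within each target. The acetylated block around the gene is seen in all 6 H3K27ac rows, and H3K27me3 has 3 regions in WT, 1 in HEAA and 13 in EV.

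Acetylation was then read at the UTX sites and over the whole windows. A site counted as acetylated when an H3K27ac region overlapped it by at least 1 bp. By this rule 11 and 9 of the 12 UTX sites counted in the WT libraries number 1 and 2. The counts were 11 and 7 in the HEAA libraries, and 9 and 10 in the EV libraries. A region was present in all 6 libraries at 6 of the 12 sites, against 66.2% of all merged UTX sites. These 6 were the 4 HES1 sites and the 2 NOTCH3 sites within the gene. The outermost TLE3 site counted in the library HEAA number 1 and in no other, and by its edge only. It began at chr15:70393900, and the merged H3K27ac region there ended at chr15:70393909. The TLE3 site that began at chr15:70391937 likewise counted in WT number 2 through a region that ended at chr15:70391941.

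The UTX site before HEY1 was picked out after its values were seen. H3K27ac regions overlapped it in the 4 libraries of WT and HEAA but not in those of EV. This pattern was held by 6 of 3689 merged UTX sites, 0.163%. EV was acetylated on both sides of the site, and its regions left a gap of 353 bp in number 1 and of 436 bp in number 2. The site ran from chr8:80711812 to chr8:80712020. In EV number 1 the region before it ended at chr8:80711808, and in EV number 2 the region after it began at chr8:80712067. In EV number 1 the pattern thus turned on a few bases at a region edge. In EV number 2 both neighbouring regions lay farther off, the one before the site ending at chr8:80711630. H3K4me1 covered the site in all 3 lines. HEY1 acetylation as a whole was shared, with all 6 libraries calling the surrounding region chr8:80710228-80714798.

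The implied start of each of the 7 genes was acetylated in all 6 libraries, since an H3K27ac region lay within 1 kb of it. The block at HES1 was wide, at 10.2 and 9.32 kb in WT, 11.0 and 10.0 kb in HEAA, and 7.85 and 9.50 kb in EV. The WT libraries overlapped those of HEAA and of EV, while both HEAA libraries were wider than both EV libraries. How many regions of the series show such non-overlap in width was not counted, so it is not read as a difference between lines. Over the whole HES1 window the cover of HEAA (18.3% and 14.6%) and EV (14.4% and 16.5%) overlapped. In EV number 1 further called stretches lay in the same merged region, chr3:193849794-193861483, which held 10.04 kb in that library. At JAG1 the region at the start was 13.1 and 5.56 kb in WT, 13.6 and 5.51 kb in HEAA, and 17.0 and 6.76 kb in EV, wide in number 1 and narrow in number 2 in every line. The merged region there, chr20:10639552-10657874, held 15.2 and 10.8 kb in WT, 17.05 and 10.4 kb in HEAA, and 17.6 and 15.99 kb in EV, so the split by number was smaller in EV once neighbouring stretches were added. NOTCH1 showed the same split by number, with 8.46 and 2.93 kb in WT, 8.50 and 2.48 kb in HEAA, and 8.52 and 3.73 kb in EV. Its merged region, chr9:139438561-139447309, held 8.46 and 5.44 kb in WT, 8.50 and 4.50 kb in HEAA, and 8.52 and 6.31 kb in EV, so that the split by number was smaller there too. The region at TLE3 had nearly the same width in every library, with 4.22 and 3.91 kb in WT, 4.57 and 3.97 kb in HEAA, and 4.05 and 4.04 kb in EV. At NOTCH3 the region was 0.439 and 1.24 kb in WT, 0.499 and 1.49 kb in HEAA, and 1.26 and 1.79 kb in EV, and here number 2 was the wider in each line. At HEY1 it was 0.841 and 1.79 kb in WT, 2.14 and 1.76 kb in HEAA, and 1.29 and 2.00 kb in EV. NOTCH2, with a start region of 1.39 and 1.23 kb in WT, 1.38 and 1.37 kb in HEAA, and 1.22 and 1.18 kb in EV, was narrow throughout.

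Away from the gene starts, the regions given next were called in all 6 libraries, while others of similar width were not, such as chr9:139425948-139429225 in NOTCH1, called in 4. The region around the far upstream UTX site of HES1, chr3:193806422-193809807, was even, with 3.09 and 3.02 kb in WT, 3.07 and 3.01 kb in HEAA, and 3.17 and 3.32 kb in EV. After HES1, chr3:193876315-193880176 was uneven, with 3.13 and 1.23 kb in WT, 3.52 and 0.687 kb in HEAA, and 1.44 and 2.39 kb in EV. The lines overlapped there, and number 2 was the lower one in WT and HEAA. Beyond the end of NOTCH1, toward SEC16A, chr9:139376108-139379619 had 3.06 and 3.27 kb in WT, 3.03 and 2.62 kb in HEAA, and 2.34 and 3.38 kb in EV. Before NOTCH1, chr9:139464520-139467822 had 1.75 and 1.94 kb in WT, 3.02 and 2.12 kb in HEAA, and 2.98 and 2.89 kb in EV. In that region WT lay below EV in both numbers, as NOTCH1 did over its whole window. The same held in the far upstream HES1 region above and in the TLE3 and HEY1 regions given next. In those HES1 and HEY1 regions HEAA also lay below EV in both numbers. It did not hold for WT in the region after HES1 or the one toward SEC16A. Nor did it in chr15:70383753-70387170 at TLE3 (3.05 kb in WT and 2.48 kb in EV, number 1). In chr19:15234683-15238066 at NOTCH3, number 1 had 3.38 kb in WT and 2.41 kb in EV. How many regions of the series had WT below EV in both numbers was not counted. Before TLE3, chr15:70432476-70435630 had 0.283 and 1.70 kb in WT, 1.86 and 1.66 kb in HEAA, and 0.866 and 3.15 kb in EV. About 26 kb before HEY1, chr8:80705247-80707824 had 2.20 and 1.92 kb in WT, 2.23 and 1.73 kb in HEAA, and 2.44 and 2.10 kb in EV.

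The share of a window inside H3K27ac regions depends on gene length as well as on acetylation, since a long gene makes a long window. JAG1 had 18.6% ± 5.91 in WT, 20.98% ± 11.4 in HEAA and 23.3% ± 1.40 in EV (SD, n = 2 each), the highest cover in EV. NOTCH1 followed in EV, with 11.4% ± 1.53 in WT, 11.9% ± 6.55 in HEAA and 16.0% ± 1.31 in EV. HES1 had 15.9% ± 1.45 in WT, 16.5% ± 2.60 in HEAA and 15.4% ± 1.49 in EV, and it overlapped NOTCH1 in EV. NOTCH3 came next with 10.5% ± 2.62 in WT, 9.30% ± 3.69 in HEAA and 12.4% ± 0.659 in EV. HEY1 had 7.71% ± 2.04 in WT, 9.38% ± 4.02 in HEAA and 9.10% ± 0.853 in EV. At NOTCH3 and HEY1 the libraries of all 3 lines overlapped. TLE3 had 5.42% ± 0.500 in WT, 5.85% ± 2.03 in HEAA and 6.52% ± 1.59 in EV. NOTCH2 was lowest in each of the 6 libraries, with 0.750% ± 0.390 in WT, 1.21% ± 0.965 in HEAA and 0.890% ± 0.146 in EV. Apart from NOTCH1 and HES1, neighbours in this order did not overlap between the EV libraries. In WT the order had HES1 before NOTCH1, and there JAG1 overlapped HES1, NOTCH1 overlapped NOTCH3, and NOTCH3 overlapped HEY1.

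**Figure D3:**
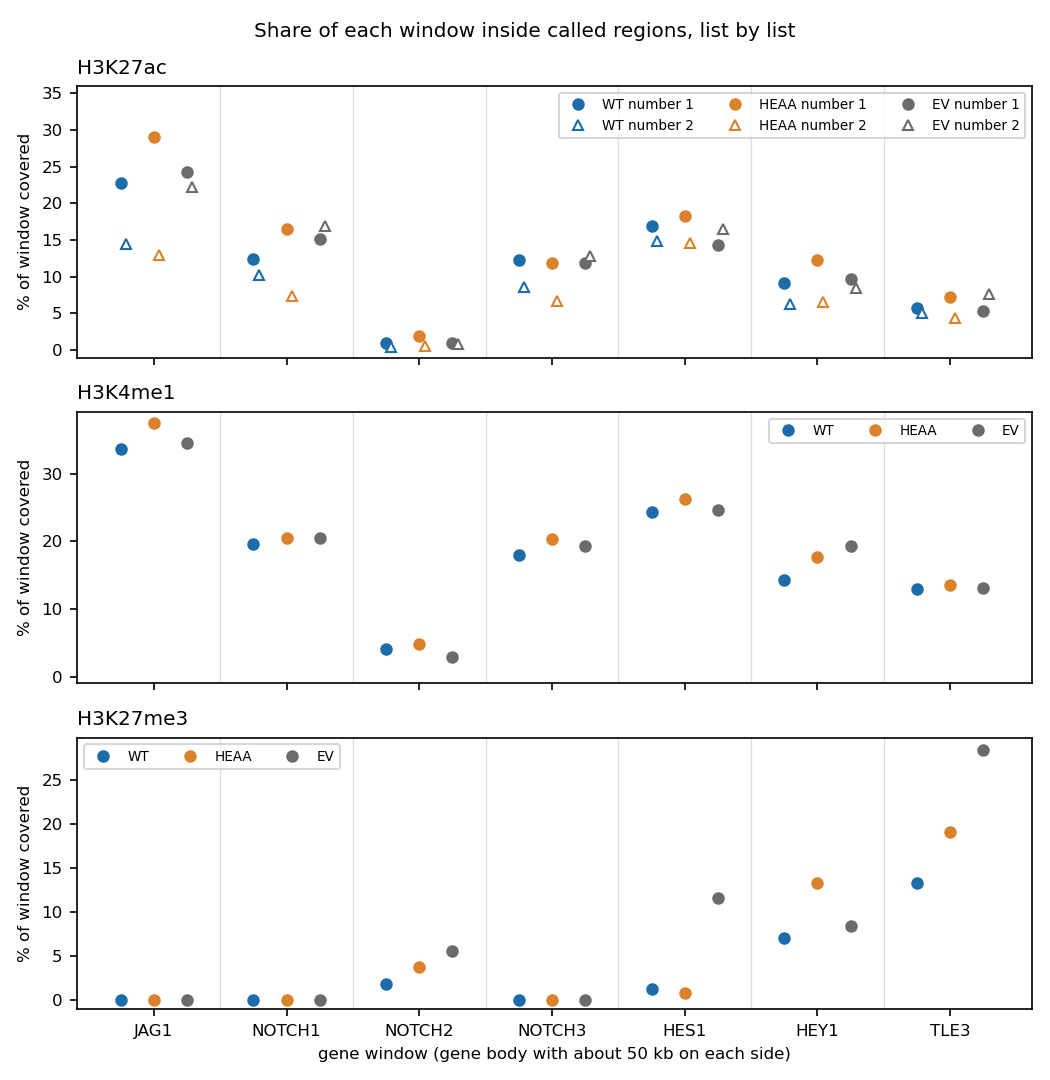
Share of each gene window inside called regions (vertical axis, %) for H3K27ac, H3K4me1 and H3K27me3, by gene, with WT, HEAA and EV from left to right and 1 point per list. For H3K27ac, filled points are number 1 and open triangles number 2. H3K27me3 is at 0 in JAG1, NOTCH1 and NOTCH3, and HES1 stands at 1.27% in WT, 0.870% in HEAA and 11.6% in EV.

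Differences in H3K27ac from EV changed sign with the replicate number, at all 7 windows for HEAA and at 4 for WT. Taken over the 7 windows, cover was 10.1% in number 1 and 7.48% in number 2 of WT, 12.3% and 6.51% of HEAA, and 10.4% and 10.9% of EV. HEAA was above EV in all 7 windows in number 1 and below it in all 7 in number 2. WT was above EV in 4 windows in number 1 and below it in all 7 in number 2. In 100 kb bins of the genome with any H3K27ac, HEAA was above EV in number 1 in 78.3% and below it in number 2 in 69.9%. WT was above EV in number 1 in 61% of these bins and below it in number 2 in 63.3%. The libraries of WT and EV did not overlap at 1 gene, NOTCH1 (12.5% and 10.3% in WT, 15.1% and 17.0% in EV). Such non-overlap was found in 18.9% of bins for WT and EV, in 9.45% for HEAA and EV, and in 2.44% for WT and HEAA, and at none of the 7 genes for these other pairs. Within the numbers, WT minus EV at NOTCH1 was −2.62 points in number 1 and −6.65 points in number 2. It was also negative in both numbers at JAG1 (−1.49 and −7.86) and HEY1 (−0.550 and −2.22), where the libraries overlapped. WT minus HEAA kept its sign at 3 genes, negative at HEY1 and NOTCH2 and positive at NOTCH3. The share of bins that keep their sign was not counted.

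**Figure D4:**
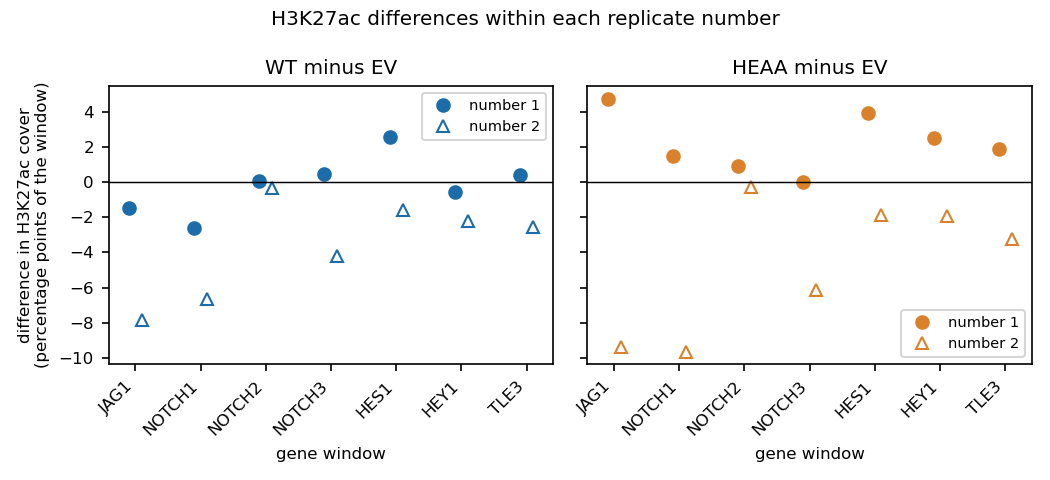
Difference in H3K27ac cover from EV (vertical axis, percentage points of the window) by gene for WT, left, and HEAA, right, computed within replicate number 1 (filled) and number 2 (open). All 7 open triangles lie below 0 in each panel, and all 7 filled points lie above 0 for HEAA.

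Single H3K27ac regions were mostly shared by all libraries or seen in a few. Merging gave 74 regions in the windows, of which 31 were called in all 6 libraries (31.8% of 81753 regions in the series) and 17 in 1 library only (28.9%). None was called in the 4 libraries of WT and HEAA without EV (0.541% of all), and none in the 2 of EV alone (0.91%). A further 4 were called in all 3 libraries of number 1 and in none of number 2 (8.06%). An example at JAG1 is chr20:10693705-10697393, about 40 kb before the gene, with 2.82 kb called in WT, 3.57 kb in HEAA and 0.726 kb in EV, all in number 1.

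H3K4me1, the mark that MLL3 and MLL4 place at enhancers, was highest at JAG1 and lowest at NOTCH2. At JAG1 it covered 33.7% of the window in WT, 37.4% in HEAA and 34.6% in EV. At HES1 the values were 24.3% in WT, 26.2% in HEAA and 24.6% in EV, and at NOTCH1 19.7% in WT, 20.5% in HEAA and 20.5% in EV. WT was the lowest line at each of these 3 genes. NOTCH3 had 18.01% in WT, 20.3% in HEAA and 19.3% in EV. TLE3 had 13.0% in WT, 13.6% in HEAA and 13.0% in EV. At these 5 genes the ratio to EV lay between 0.932 and 1.08. HEY1 was lower in both lines with UTX, at 14.3% in WT and 17.7% in HEAA, against 19.3% in EV. NOTCH2 was higher in both, at 4.09% in WT and 4.88% in HEAA, against 2.85% in EV.

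The widest H3K4me1 region of the set lay inside JAG1, at chr20:10634336-10651482, and held 14.8 kb in WT, 16.6 kb in HEAA and 16.8 kb in EV. It reached to within 3.52 kb of the gene start, and the acetylated block ran on to the start and past it. In TLE3 the widest, chr15:70382482-70388302, held 5.61 kb in WT, 5.06 kb in HEAA and 5.42 kb in EV and spanned the 2 UTX sites in the gene. At HES1, chr3:193846040-193851845 held 5.04 kb in WT, 5.48 kb in HEAA and 5.39 kb in EV and ended just before the strong UTX site. Inside NOTCH2, chr1:120529332-120531594 held 2.01 kb in WT, 2.26 kb in HEAA and 0.742 kb in EV.

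Summed over the 7 windows, H3K4me1 regions covered 171 kb in WT, 189 kb in HEAA and 178 kb in EV, with a mean fold of 3.30 in WT, 3.35 in HEAA and 3.44 in EV. The ratio to EV was 0.962 for WT and 1.06 for HEAA, while over the genome it was 1.14 for WT and 1.18 for HEAA. HEY1 stood at 0.741 for WT and 0.918 for HEAA, and NOTCH2 at 1.44 for WT and 1.72 for HEAA. NOTCH1 was also below EV in both lines, at 0.959 for WT and 0.999 for HEAA. Of the 100 kb bins with any H3K4me1, 19% were lower in both WT and HEAA than in EV. NOTCH2 has near-identical copies elsewhere in the genome, so reads from it may not map uniquely, and how such reads were handled is not known here.

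Of 142 merged H3K4me1 regions, 85 were called in all 3 lines (47.1% of 202449 in the series), 9 in WT and HEAA without EV (13.5%), and 14 in EV only (7.55%). Of the 9, 5 were among the 30 regions at NOTCH2. The UTX sites had H3K4me1 at 8 of 12 in WT (66.7% of all UTX sites), 7 in HEAA (68%) and 9 in EV (75.6%). The strong HES1 site had none in WT, and in HEAA and EV it was touched at its edge only. The H3K4me1 regions there began at chr3:193853038 in HEAA and chr3:193853023 in EV, while the site ended at chr3:193853044. The site at the HES1 start and both NOTCH3 sites within the gene had none in any line, while all 3 were acetylated in every library.

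H3K27me3, the mark UTX removes, was called at HES1, HEY1, NOTCH2 and TLE3 and nowhere in the other 3 of the 7 windows, JAG1, NOTCH1 and NOTCH3. Of 30357 bins of 100 kb in the genome, 31.6% had no H3K27me3 in any line. None of the 12 UTX sites carried it, against 0.217% of all merged UTX sites that did. The regions had low folds, 2.03 to 3.30 in the windows, and the highest −log10 q among them was 4.69. Low folds were not particular to these windows. The mean fold was 2.58 in WT, 2.45 in HEAA and 2.55 in EV, beside 2.64, 2.40 and 2.50 over the whole lists.

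At HES1 the mark covered 1.29 kb in WT, 0.887 kb in HEAA and 11.9 kb in EV, from 3 regions in WT, 1 in HEAA and 13 in EV. All of it lay in the flanks, with none over the gene body. In EV, 9.35 kb lay before the gene and 2.51 kb after it, and no region after the gene was called in WT or HEAA. The widest EV regions were 2.21 kb at chr3:193833563-193835768, 1.64 kb within chr3:193818283-193820203 and 1.53 kb at chr3:193822361-193823893. WT had 0.378, 0.389 and 0 kb in these 3 places, and HEAA had 0, 0.887 and 0 kb. The mean fold was 2.52 in WT, 2.32 in HEAA and 2.41 in EV, a narrower spread than that of the number of regions.

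Against EV, cover at HES1 was 0.109 times as large in WT and 0.0748 times in HEAA. Chromosome 3 as a whole had ratios of 0.683 for WT and 1.09 for HEAA. Among 100 kb bins with at least 10% cover in EV, 1.55% had cover in WT and in HEAA both at most 1/5 of that in EV, a limit set after the HES1 values were seen. The median ratio over the same 7817 bins was 0.670 for WT and 0.984 for HEAA. The HES1 window had 11.6% cover in EV, close to the 10% limit, and bins of like cover were not counted apart. The 1.55% therefore does not say how rare HES1 is among such bins.

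TLE3 had the most H3K27me3, 20.0 kb in WT, 28.7 kb in HEAA and 42.7 kb in EV, from 21 regions in WT, 21 in HEAA and 29 in EV. The mark lay on both sides of the gene and stopped before the gene body, which had none in any line. Before the gene it covered 4.17 kb in WT, 7.48 kb in HEAA and 17.1 kb in EV. After the gene it covered 15.8 kb in WT, 21.2 kb in HEAA and 25.5 kb in EV. The difference between lines was thus larger on the side of the gene start. The nearest region before the start was 18.97 kb away in WT, 4.86 kb in HEAA and 4.60 kb in EV, and the UTX site at 4.1 kb lay between it and the start. The widest merged region, chr15:70320827-70333472, held 5.64 kb in WT, 10.7 kb in HEAA and 10.5 kb in EV. The ratio to EV was 0.468 for WT and 0.672 for HEAA, beside 0.723 for WT and 0.921 for HEAA over chromosome 15, with mean folds of 2.64 in WT, 2.49 in HEAA and 2.68 in EV.

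**Figure D5:**
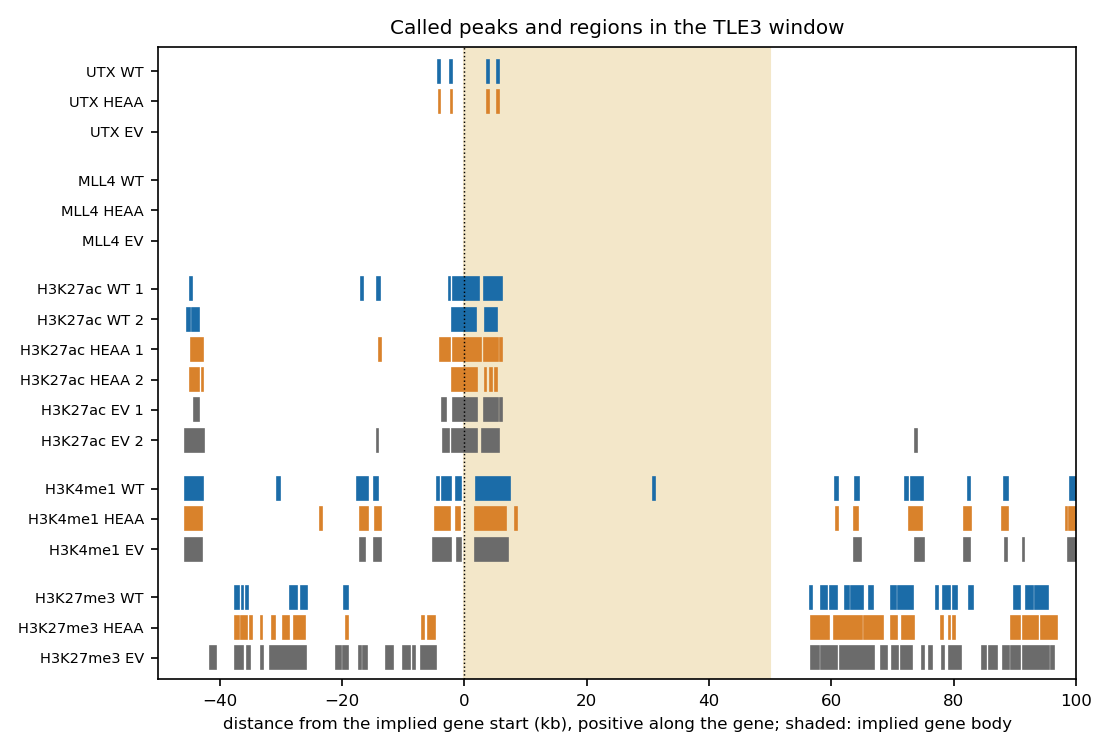
Called peaks and regions in the TLE3 window (horizontal axis, kb from the implied gene start, gene body shaded), 1 row per list with WT, HEAA and EV from top to bottom within each target. H3K27me3 flanks the gene on both sides in all 3 lines and is not called over the gene body, and in WT its nearest region before the start is 18.97 kb away.

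NOTCH2 carried H3K27me3 only beyond the far end of the gene, at 4.80 kb in WT, 9.70 kb in HEAA and 14.6 kb in EV. The ratio to EV was 0.329 for WT and 0.665 for HEAA, with mean folds of 2.56 in WT, 2.35 in HEAA and 2.54 in EV. ADAM30 is another coding gene near this window. NOTCH2 and TLE3 thus had the same order of lines, WT lowest and EV highest, while at HES1 HEAA was the lowest.

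HEY1 had another order of the lines. Its window held 7.35 kb in WT, 13.8 kb in HEAA and 8.79 kb in EV, ratios of 0.837 for WT and 1.57 for HEAA, with mean folds of 2.49 in WT, 2.48 in HEAA and 2.41 in EV. The gene body had 0.716 kb in WT and 1.58 kb in HEAA, in the merged region chr8:80678057-80679729, and none in EV. All the rest lay after the gene, and none before it in any line.

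Over the 7 windows the mark covered 33.4 kb in WT, 53.1 kb in HEAA and 77.9 kb in EV, with mean folds of 2.58 in WT, 2.45 in HEAA and 2.55 in EV. The ratio to EV was 0.429 for WT and 0.681 for HEAA, against 0.704 for WT and 1.05 for HEAA over the genome. Cover was lower in both WT and HEAA than in EV at 3 of the 4 windows with the mark, and in 46.1% of 20756 bins of 100 kb with any. Of 70 merged regions, 28 were called in EV only (21% of 323813 in the series), 17 in all lines (25.7%) and 4 in WT and HEAA without EV (7.4%). The EV-only regions were 10 of 13 at HES1, 12 of 26 at TLE3, 3 of 15 at NOTCH2 and 3 of 16 at HEY1. The 4 with the reverse pattern all lay at HEY1. WT and HEAA are set against the same EV list here. With 1 list per line, differences in depth and antibody performance between lists cannot be told apart from differences between lines.

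Across the 18 lists, the windows were also compared by the share of each that a list covered. By Spearman's rho, JAG1 and NOTCH1 were the most alike pair (0.984), and NOTCH2 and TLE3 followed (0.945). By Pearson's r, JAG1 and NOTCH3 (0.992) stood beside JAG1 and NOTCH1 (0.991), and NOTCH2 and TLE3 had 0.926. HES1 had its highest rho with JAG1 (0.914) and NOTCH1 (0.912), its highest r with NOTCH3 (0.953) and JAG1 (0.949), and its lowest of both with TLE3 (a rho of 0.576). The lowest rho was 0.273, for NOTCH3 and TLE3. These values describe 18 lists that share cells and mostly contrast 1 target with another, and they have no test. They include the MLL4 lists, which held no peak anywhere on chromosome 20, where JAG1 lies.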

How the data were processed

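Peak lists were analysed from ChIP-seq of UMUC1 cells, 18 of 24 samples; the 6 inputs were not used here. Fixation was with paraformaldehyde, per the labels' protocols, and chromatin was digested with micrococcal nuclease and sonicated for UTX and MLL4, and sonicated for histone marks. MACS2 and the builds hg19 and GRCh37 are named in the submitters' processing notes; its version and the aligner were not given in the sources used here. As deposited, histone lists held broad regions and the other lists narrow peaks. The UTX peak names mention merging without saying of what. The fold enrichment in each list is a linear ratio given by the authors' peak caller. The −log10 of p and q were deposited for each peak, with q at or below 0.05 in narrow and 0.1 in broad lists. The deposited score was 10 times the −log10 q, cut to a whole number, and was not used. Read counts were not used here, so depth and precision are unknown.

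Regions sharing at least 1 bp were merged across lists on chromosomes 1 to 22 and X, and cover is the share of a window inside a list's regions. The same counts over all merged regions, or over bins of 100 kb, give the background. Gene starts were taken 50 kb inside the window edges. Strands and promoter sequences came from RefSeq tables on GRCh38.p14, and that of HEY1 from general knowledge. The code (pandas 2.3.3, NumPy 2.4.6, Python 3.11.15) was tested on simulated data, and figures used matplotlib 3.10.9. The members and lists were chosen with earlier results of these data known, so no test was run. The text names all 7 genes and, in each window, sites chosen by a rule: every UTX and MLL4 site and, of the histone regions, some of the 3 widest per window and mark. Exceptions chosen after their values were seen are the JAG1 region called in number 1 libraries, the NOTCH1 region called in 4 libraries, the acetylation at the UTX site before HEY1, and the H3K27me3 limit. The cell line was not checked against marker genes, which cannot be placed without an hg19 annotation. Alternatives covered the q threshold, list length, window edges, overlap rule, replicates and a replicate block.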

Additional observations from a re-analysis of the deposited data

Results flagged for a closer look

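In 5 cases WT and HEAA lay on opposite sides of EV in a single list per line; the difference between WT and HEAA was not tested, and both are set against the same EV list. At HEY1, H3K27me3 cover was 7.07% of the window in WT, 13.3% in HEAA and 8.45% in EV, so WT minus HEAA was −6.22 percentage points. For H3K4me1, WT minus HEAA was −3.75 points at JAG1, −2.29 points at NOTCH3, −1.95 points at HES1 and −0.605 points at TLE3, with WT below and HEAA above EV at each. Over the whole genome the H3K4me1 regions covered 179 Mb in WT, 186 Mb in HEAA and 157 Mb in EV.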

How the results depend on the processing

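Of the recomputed values, 64 kept their direction and stayed within 1 pooled SD (H3K27ac) or 1.5 times (counts and ratios) of the value above, 6 moved further and 6 changed direction. The H3K27ac limit is loose, since the pooled SD of 2.62 points is larger than each H3K27ac difference below. The 64 also include values that could not change, those of the replicate block and the EV UTX peaks at equal list length. They are therefore not a measure of how firm the results are. For H3K27ac, WT minus EV kept its sign in every alternative run, and the other differences did not. HEAA minus EV was −1.20 percentage points over the 7 windows (pooled SD 2.62), 1.97 within number 1 and −4.36 within number 2, and ran from −4.11 to 1.72 when 1 library was left out. WT minus HEAA was −0.627 points, 0.971 within number 2 and −2.22 within number 1, and ran from −3.54 to 2.29 when 1 library was left out. WT minus EV was −1.82 points, −0.257 within number 1 and −3.39 within number 2, and ran from −3.14 to −0.503 when 1 library was left out, so that its size is not fixed. A replicate block, chosen after seeing the data, left the differences at −1.82 for WT minus EV, −1.20 for HEAA minus EV and −0.627 for WT minus HEAA by construction, with a standard error of 2.24 points with the block and 2.62 without it. With 2 numbers, the data do not show whether the numbers pair the libraries.

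With a minimum −log10 q of 5, the H3K4me1 ratio of HEAA to EV was 0.895 in place of 1.06, EV kept 1 of its 2 UTX peaks at HES1, and no H3K27me3 region was left in the windows in any line, so the H3K27me3 differences rest on weak regions. Joining peaks up to 500 bp apart also gave 1 EV peak. With 25 kb taken off each window end, 2 of the 4 MLL4 sites were left, the shorter windows being the cause by construction. An alternative chosen after seeing the data left out single windows. Without HES1 the H3K27me3 ratio to EV was 0.486 for WT and 0.790 for HEAA, and without TLE3 it was 0.381 for WT and 0.692 for HEAA. Depth is unknown throughout, and 1 list per line allows no error for any target but H3K27ac.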

Other observations

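Beyond the TLE3 window, 48.9 kb past its edge, UTX was called in WT with a fold of 4.39 and in HEAA with 6.78, and MLL4 in WT with 5.83 and in HEAA with 5.83. Beyond the NOTCH3 window, about 36 kb past its edge, UTX was called in WT with a fold of 5.91 and in HEAA with 6.56, and MLL4 in WT with 7.64 and in HEAA with 6.35. Both places therefore had UTX and MLL4 in WT and HEAA and neither in EV, a combination that no UTX site within the windows had. The UTX peaks given above outside the HES1, HEY1 and NOTCH1 windows had no MLL4 peak either. The share of all merged UTX sites with this combination was not counted, so it cannot be read as a trait of these windows.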
